A study of Mus musculus with 20 samples.

Results

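Pou5f1 encodes OCT4, a POU-family transcription factor that ES cells need to stay pluripotent. The mouse gene lies on the + strand of chromosome 17, at chr17:35506018-35510772 in the build GRCm38, with the GENCODE M21 identifier ENSMUSG00000024406.16. The locus is described here by its ATAC-seq peaks, which mark DNA open to a transposase. Every listed peak that overlapped the 4755 bp gene body, or lay within 50000 bp of it, was taken as a member. This rule found 19 of the 102373 peaks of the list. Of these, 9 lay upstream of the transcription start site (TSS), 2 overlapped the gene body and 8 lay downstream of the gene.

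The peaks come from ZHBTc4 mouse ES cells, in which a Tet-Off promoter controls Pou5f1 expression, so that doxycycline (dox) shuts off OCT4. The study does not describe the sequence of the chromosome 17 alleles in this line, or whether they are intact. All positions given here are those of the reference genome. To ask what OCT4 does at the transition from mitosis to G1, the cells carried SNAP-MD-OCT4, whose mitotic degron (MD) lowers the protein strongly, but not wholly, at that transition, or SNAP-MD*-OCT4, whose degron is mutated. The series has 20 libraries in 10 groups of 2 replicates. For each construct, cells kept for 40 h in dox (1 ug/ml per the labels) and stained with Hoechst were separated by phase (early G1, late G1, S, or late S to G2), giving 16 libraries, and the other 4 libraries came from unsorted cells without dox. All cells also carried YPet-MD, which marks the phase. Per the study, its ES cells were grown in medium with serum, LIF and the 2i inhibitors. Lentiviral vectors with the PGK promoter drove the constructs, and the lines were populations sorted for like SNAP and YPet levels. Per the study, both tagged constructs were expressed below the wild-type OCT4 level. In addition to the locus on chromosome 17, the cells held OCT4 cDNA copies, whose places in the genome are not given.

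The peak list gives the chromosome, start and end of each peak, merged over the 16 libraries from cells in dox. It holds no height, no count and no value for any library. A region found in a single library looks the same as one found in all 16, the depth is unknown, no replicate error can be given, and no difference between MD-OCT4 and MD*-OCT4 or between phases could be computed at this locus. All values below are thus positions, widths and sequence features, given as descriptions without a test. Positions are distances from the TSS at 35506018, with negative values upstream.

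In ES cells Pou5f1 is controlled by a promoter without a TATA box and by a pair of enhancers upstream of it. The distal enhancer is the one known for its activity in naive ES cells and the germ line, and the proximal enhancer for its activity in the epiblast. OCT4 and SOX2 bind the distal enhancer together on a composite motif, so that the gene is among the targets of its own product.

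Peak 9, numbered in order along the chromosome, lay over the distal enhancer at chr17:35503739-35504519. A stretch of 300 bases from its middle is shown because it holds the composite site. It spans chr17:35503918-35504217 (GRCm38, + strand), from -2100 to -1801 bp. Capitals mark a KLF match (CCACACCC, here on the - strand) and then the OCT4::SOX2 match, also on the - strand.
Distal enhancer, peak 9: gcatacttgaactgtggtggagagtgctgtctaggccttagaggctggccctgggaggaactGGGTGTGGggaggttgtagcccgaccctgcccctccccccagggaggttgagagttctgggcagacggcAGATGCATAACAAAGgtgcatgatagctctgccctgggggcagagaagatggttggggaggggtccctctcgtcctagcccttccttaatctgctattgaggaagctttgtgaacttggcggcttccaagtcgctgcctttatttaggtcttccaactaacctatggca

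The bases just before the TSS are shown because they lie inside peak 10 and carry the promoter's own motif matches. They span chr17:35505782-35506017 (GRCm38, + strand) and are credited to RefSeq, whose promoter entry starts with them. Capitals mark a GC box (GGGCGG), the word bound by SP and KLF factors, and after it a nuclear receptor half-site (AGGTCA).
Upstream of the TSS, peak 10: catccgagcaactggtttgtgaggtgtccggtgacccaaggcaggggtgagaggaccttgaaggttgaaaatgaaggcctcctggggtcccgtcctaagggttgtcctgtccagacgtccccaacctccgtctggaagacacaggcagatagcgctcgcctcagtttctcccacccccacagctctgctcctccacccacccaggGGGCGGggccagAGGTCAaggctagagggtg

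Another 4 short stretches carry the remaining matches that the description turns on (GRCm38, + strand). They are the second OCT4::SOX2 match of the locus at chr17:35543495-35543569, a CTCF match without a mismatch at chr17:35544847-35544920, an OCT octamer (ATGCAAAT) in exon 4 at chr17:35509953-35510020 and an ESRRB match (TCAAGGTCA, here on the - strand) at chr17:35485898-35485966. Capitals mark the match in each.
OCT4::SOX2, peak 16: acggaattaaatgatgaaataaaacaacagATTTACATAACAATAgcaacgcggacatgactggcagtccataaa
CTCF, peak 17: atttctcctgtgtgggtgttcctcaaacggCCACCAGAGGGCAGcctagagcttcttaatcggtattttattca
OCT octamer, peak 11: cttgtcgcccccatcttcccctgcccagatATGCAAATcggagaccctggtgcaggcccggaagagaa
ESRRB, peak 4: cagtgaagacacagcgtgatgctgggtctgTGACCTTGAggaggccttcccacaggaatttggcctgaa

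Upstream of Pou5f1 the peaks were denser near the gene, counted in distance classes of unequal size. Within 5000 bp of the TSS lay 2 peaks wholly upstream of it, from there to 10000 bp another 2, from there to 25000 bp 3 and from there to 50000 bp 2. Per 10 kb these were 4, 4, 2 and 0.8 peaks. Downstream the same classes, from the gene's end, held 0, 1, 2 and 5 peaks, or 0, 2, 1.33 and 2 per 10 kb. These classes were not counted at other genes. The outermost members lay 39911 bp upstream and 46032 bp downstream of the gene body. The nearest peaks outside the limit were 65522 bp upstream, with a width of 1639 bp, and 57136 bp downstream, with a width of 272 bp.

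**Figure D1:**
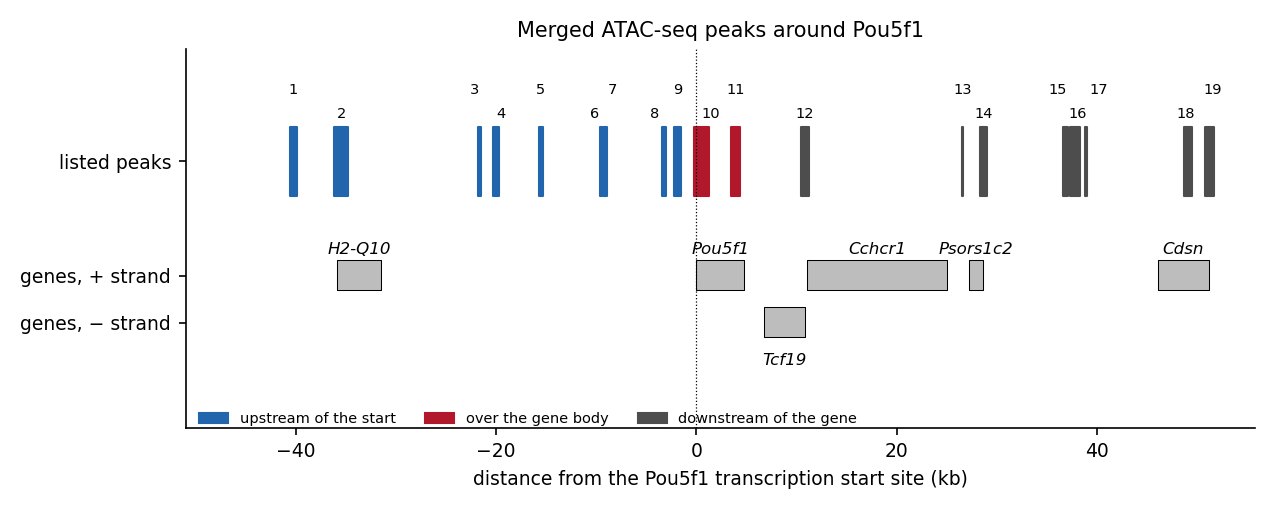
Peaks of the merged list and the protein-coding genes around Pou5f1, by distance from its TSS in kb. Bars are peaks drawn to scale and numbered 1 to 19, blue upstream of the TSS, red over the gene body and grey downstream, with genes as boxes on their strand. Upstream, 4 peaks lie wholly within 10 kb of the TSS, and 8 peaks lie beyond the 3′ end of the gene.

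The distal enhancer was covered by a peak. Its window, set wide from -2500 to -1800 bp because its limits are known only roughly, shared 480 of its 701 bp (68.5%) with peak 9. Peak 9 was 781 bp wide, ran from -2279 to -1499 bp, and was wider than 78.8% of all peaks. Its GC content was 50.1%. The same window drawn before the TSS of each of the 21938 protein-coding genes met a peak at 5.84% of them, and at 1.10% it was covered at least as far. The window was placed for the enhancer of Pou5f1, so these shares do not describe enhancers at other distances from other genes.

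Peak 9 held 1 match to the OCT4::SOX2 composite motif, from -1969 to -1955 bp. It was found with a 15-base consensus and up to 2 mismatches, which 0.78% of all peaks contain, and 1.09% of the 7886 peaks within 10% of its width. A SOX word (CCTTTGT) overlapped the composite match on the same strand, from -1960 to -1954 bp, and the KLF match lay from -2038 to -2031 bp. KLF factors belong to the same naive pluripotency network as OCT4 and SOX2. At least 1 SOX word occurs in 21.3% of all peaks and at least 1 KLF word in 22.1%. Among the 7886 peaks of similar width these shares were 32.3% and 32.7%. Peak 9 contained no match to the OCT octamer or to the ESRRB, NR5A2, STAT (TTCCNGGAA), TCF (CTTTGAT), AP-2 (GCCTNAGGC) or CTCF words.

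The proximal enhancer, in contrast, was almost wholly outside the peaks. Its window, from -1500 to -900 bp, shared 2 of 601 bp (0.333%) with the end of peak 9. Between peaks 9 and 10 the list left 1213 bp free. Every 32-base word of this gap occurred once in the assembled chromosomes. At 9.43% of protein-coding genes a peak met the same window by at least 1 bp. The list does not tell a region that was closed from one that stayed under the threshold of the peak caller.

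The promoter peak, peak 10, was the widest of the locus. It was 1571 bp wide, wider than 97.9% of all peaks, and ran from -285 to 1285 bp at chr17:35505733-35507303. It covered all 301 bp of the window from -250 to 50 bp, which a peak met at 60.6% of protein-coding genes. The annotation places the TSS, the whole of exon 1 and the first 820 bp of intron 1 under it.

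Peak 10 leaned into the gene more than most promoter peaks. It reached 285 bp before and 1285 bp after the TSS, so that 81.8% of it lay downstream. Over the 12900 protein-coding genes with a peak on the TSS, the medians were 436 bp before, 622 bp after and 58.7% downstream. The reach into the gene was longer at 5.20% of these genes, and the downstream share was higher at 9.95%. The OCT4 cDNA copies in the cells share exon sequence with the part of the gene under peak 10. Whether reads from these copies added to its reach or its downstream share was not tested.

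Peak 10 was also poor in CpG for a promoter peak. Its ratio of observed to expected CpG was 0.353, against a median of 0.730 over the 12900 genes, and 4.65% of the genes had a lower ratio. Its GC content of 57.8% was above the median of all peaks, which was 50.1%. The GC box in capitals above lay from -31 to -26 bp and the half-site from -19 to -14 bp. Inside the gene peak 10 held another pair of GC boxes, which ended at 261 and 422 bp, another half-site ending at 667 bp, and a CTCF match with 1 mismatch. A GC box occurs in 26.7% of all peaks and in 35.7% of the 32851 RefSeq promoters of 300 bases, and a half-site in 31.9% and 16.3%. Wide peaks hold them more often. Among the 2294 peaks within 10% of the width of peak 10, 88.2% hold a GC box and 53.0% a half-site.

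Only the main TSS of Pou5f1 lay in a peak. GENCODE gives the gene 6 start positions, and the RefSeq entry for the main start, at 35506032, was in peak 10 as well. The start at 35507482, inside intron 1, lay 179 bp beyond the end of peak 10. The other 4, from 35508805 to 35508821, lay 604 to 620 bp before peak 11.

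Peak 11 lay over the 3′ part of the gene. It ran from 3407 to 4393 bp at chr17:35509425-35510411, with a width of 987 bp. It took in 87.0% of exon 3, all of intron 3, exon 4 and intron 4, and 25.6% of exon 5, and overlapped the antisense gene Gm19553. The OCT octamer lay at 3965 to 3972 bp, inside exon 4, and is the 1 octamer among the 19 peaks, where 2.56% of all peaks hold one. Intron 3 carried a SOX word and intron 4 a run of 3 KLF words between 4174 and 4198 bp.

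In all, peaks covered 2273 bp or 47.8% of the Pou5f1 gene body. At 2.03% of protein-coding genes the share was at least as high, and the median was 3.65%. Among the 6186 genes of 2000 to 10000 bp, 2.67% were covered as far and the median was 6.55%. Exons were covered to 63.4% and introns to 41.6%. Exon 2 and intron 2 were free of peaks. Whether these parts are intact in the alleles of this line is not described by the study.

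The OCT4 cDNA copies in the cells share exon sequence with the gene, and reads from the copies and from the gene cannot be told apart within an exon. A cDNA lacks the introns, of which 3 and 4 were covered to 100% and intron 1 to 31.3%. Peaks were called in paired-end mode, and whether cDNA read pairs that join exons counted over introns was not tested. The part of exon 5 after peak 11 consisted of words found elsewhere in the genome, with 100% of its 32-base words present more than once, most often on chromosome 1. In exon 2 this share was 21.1%, in exon 1 5.75% and in exon 4 0%. The part of these copies in where peaks begin and end was not tested.

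**Figure D2:**
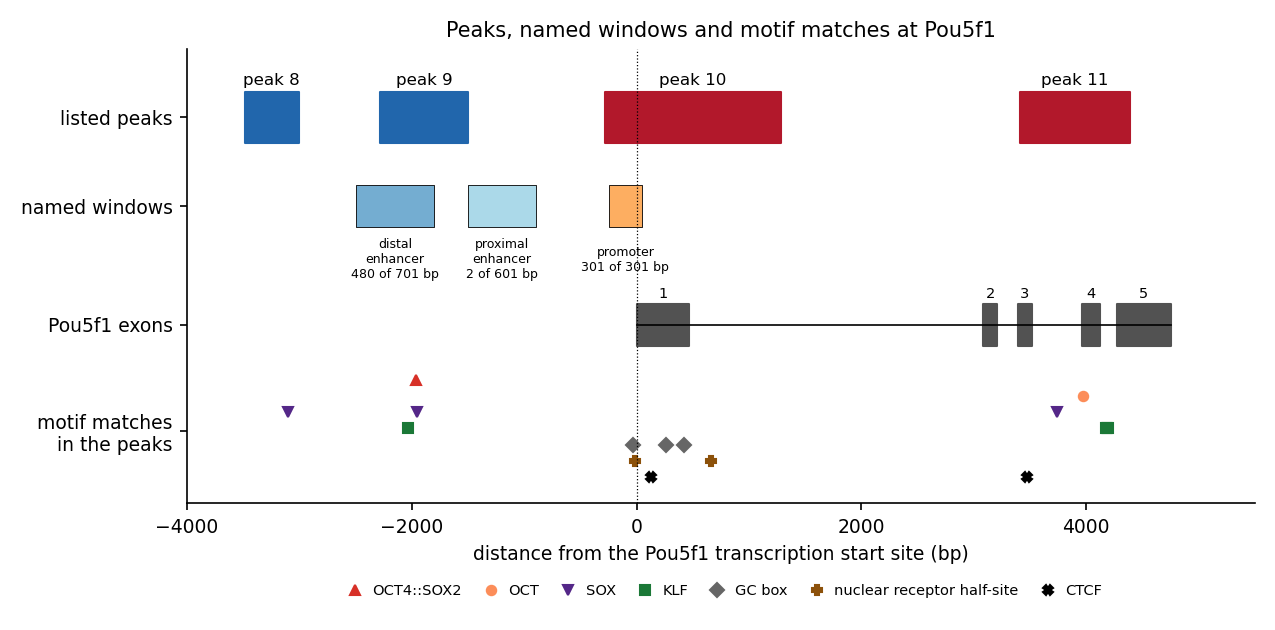
The Pou5f1 gene and the DNA before it, by distance from the TSS in bp. Rows show the listed peaks, the windows taken for the distal enhancer, proximal enhancer and promoter with the bp under peaks, the 5 exons, and the motif matches inside peaks. The gap between peaks 9 and 10 takes in all but 2 bp of the proximal enhancer window.

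Upstream of the distal enhancer another 4 peaks, 5 to 8, were nearer to Pou5f1 than to any other protein-coding gene. Peak 8, from -3487 to -3008 bp, was 480 bp wide, stood 728 bp before peak 9 and held a SOX word. Peaks 6 and 7, from -9593 to -9391 bp and from -9363 to -8898 bp, were 27 bp apart. They consisted mostly of repeats, with 100% and 81.5% of their bases marked as repeat in the genome sequence, where the median over all peaks was 10.5%. Of their 32-base words, 48.3% and 53.3% occurred more than once in the genome. Peak 5, from -15770 to -15297 bp, had a GC content of 54.9% and held a SOX word.

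Counted together, the 10000 bp before the TSS met 5 peaks, which covered 2215 bp. The median protein-coding gene had 1 peak and 488 bp there. At least 5 peaks were found at 0.511% of genes, and at least as many bp at 1.53%. The 5 peaks include peak 10, which reached 285 bp before the TSS. They also include peaks 6 and 7, which lay 27 bp apart and consisted mostly of repeats. The share of 0.511% was not recounted with such close peaks joined.

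Of the 19 peaks, 7 had Pou5f1 as the nearest protein-coding gene, peaks 5 to 11. Of the others, 4 lay nearest to H2-Q10, 5 to Cdsn, 2 to Psors1c2 and 1 to Tcf19. Peaks within 1000 bp of any annotated TSS numbered 5, beside 25.1% of all peaks, and 14 were distal.

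The peaks over the starts of H2-Q10, Tcf19 and Cchcr1 had higher CpG ratios than peak 10. Peak 2, 1372 bp wide, lay over the start of H2-Q10, a class I gene of the major histocompatibility complex. It had a GC content of 65.8%, an observed to expected CpG ratio of 0.756 and 6 GC boxes. Of its 32-base words, 15.9% occurred more than once, all the other copies being on chromosome 17. Peak 12, 794 bp wide, lay over the starts of both Tcf19 and Cchcr1, which point away from each other. Its GC content was 61.5%, its CpG ratio 0.854, and it held 5 GC boxes.

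Peaks 3 and 4 lay between H2-Q10 and Pou5f1, at -21861 to -21550 bp and at -20327 to -19715 bp. Peak 4, 613 bp wide, held the only ESRRB match of the locus, from -20090 to -20082 bp, where 2.82% of all peaks have one. ESRRB is an orphan nuclear receptor of the naive pluripotency network. Peak 1, at -40633 to -39911 bp and 723 bp wide, was the farthest upstream.

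Downstream, peaks 15, 16 and 17 stood close together between 36602 and 38967 bp, separated by 143 and 420 bp. They were intergenic, with Cdsn, a gene of the epidermal cell junction, as the nearest protein-coding gene. Peak 16, at chr17:35543304-35544352, was 1049 bp wide and held the second OCT4::SOX2 match, from 37507 to 37521 bp, with a SOX word, a KLF word, a TCF word and a half-site. Of the 6427 peaks within 10% of its width, 1.28% hold an OCT4::SOX2 match. Peak 17 was 213 bp wide and held a CTCF match without a mismatch near its middle. Such a match, at any place in the peak, occurs in 3.67% of all peaks. CTCF is the factor at most boundaries of chromatin loops in mammals. With 1 mismatch allowed, 6 of the 19 peaks held a CTCF match (peaks 1, 3, 7, 10, 11 and 17), where 13.0% of all peaks do.

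The remaining peaks lay around Psors1c2 and Cdsn. Peak 13, with 150 bp the narrowest of the locus, lay 541 bp before the TSS of Psors1c2 with a CpG ratio of 0.166, and peak 14 overlapped the end of that gene. Peak 18, 822 bp wide, was centred in a coding exon of Cdsn, and peak 19 overlapped the gene's end. None of these 4 peaks held an OCT4::SOX2, OCT, SOX or ESRRB match.

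The pair of OCT4::SOX2 sites can be read against each other in the direction of the consensus, with positions counted from 1 at the SOX end. Each departed from the consensus at 2 positions. In the distal enhancer both changes lay in the OCT part, A13T and A14C. In peak 16 they were C1T and C11T. The other 17 peaks held no site with fewer than 4 mismatches. For comparison, 4 of the 290 peaks around 16 other pluripotency genes held a match, and these sites are listed with their genes.
Pou5f1, distal enhancer, chr17:35504049-35504063: CTTTGTTATGCATCT
Pou5f1, peak 16, chr17:35543525-35543539: TATTGTTATGTAAAT
Nr5a2, chr1:136940772-136940786: CATTGTCATGCTAAT
Zfp42, chr8:43307181-43307195: CTCAGTTATGCAAAT
Utf1, chr7:139945681-139945695: CATTGTTATGCTAGT
Fgf4, chr7:144888779-144888793: CATTCTTATGCAATT

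The 4 sites of the other genes lay at other distances from the TSS, taken as the outermost annotated 5′ end of each gene. That of Zfp42 was centred 208 bp before it, and those of Utf1, Nr5a2 and Fgf4 1899, 19669 and 41419 bp after it. The site of Nr5a2 had 1 mismatch, A12T, and the other 3 had 2 each. Each of these 4 genes had 1 peak with a match, and Pou5f1 had 2.

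The peaks around Pou5f1 were wide. Their median width was 690 bp, with quartiles of 470 and 862.5 bp and a range of 150 to 1571 bp, and 15 of 19 were wider than the median of all peaks. Over all peaks the median was 415 bp, with quartiles of 233 and 708 bp. Together the 19 peaks covered 13144 bp or 12.5% of the 104.755 kb window, where the whole list covered 2.00% of the chromosomes. The chromosomes include stretches far from genes, and this share was not taken for the windows of other genes. The window as a whole was 37.0% repeat, while the median repeat share of the 19 peaks was 14.8%.

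**Figure D3:**
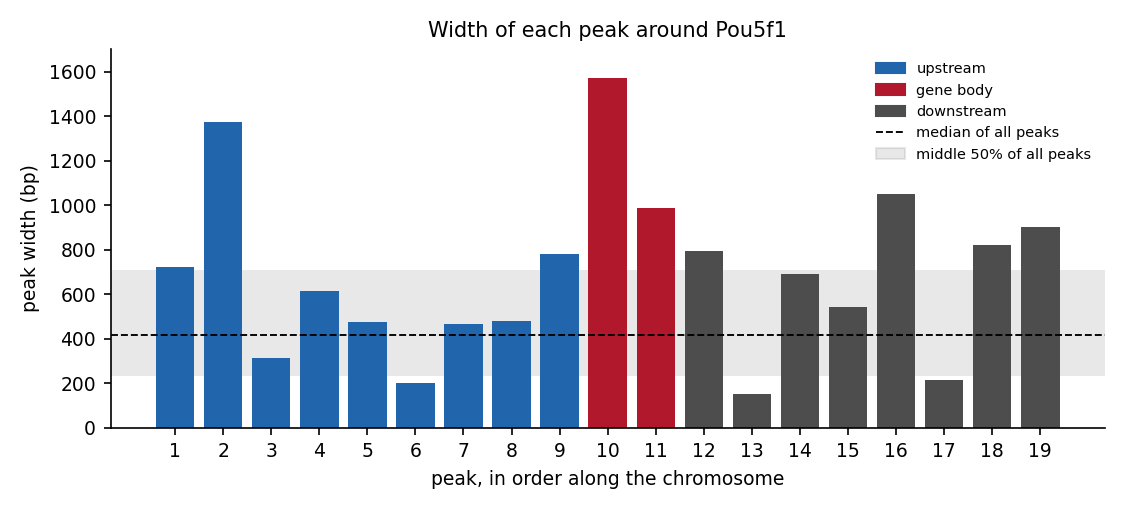
Width in bp of each of the 19 peaks, in order along the chromosome. The dashed line is the median of all 102373 peaks and the grey band the range between their quartiles, from 233 to 708 bp. Peak 10 over the promoter is the widest, and peaks 3, 6, 13 and 17 lie below the median.

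The window of Pou5f1 held more peaks than that of most genes, and as many as lie within the range of other pluripotency genes. The same window around all 21938 protein-coding genes held a median of 10 peaks, with quartiles of 4 and 15, and 12.4% of genes had 19 or more. Around the 16 other pluripotency genes the number ran from 3 at Nr0b1 to 29 at Esrrb, with a median of 19.5. Of these genes 7 had fewer peaks than Pou5f1, 8 had more and Sall4 had as many. These windows grow with the gene, from 101.324 kb at Utf1 to 260.512 kb at Esrrb. Per 10 kb Pou5f1 had 1.81 peaks, Esrrb had 1.11, and 5 of the 16 genes (Nanog, Utf1, Klf5, Fgf4 and Tbx3) had more than Pou5f1.

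**Figure D4:**
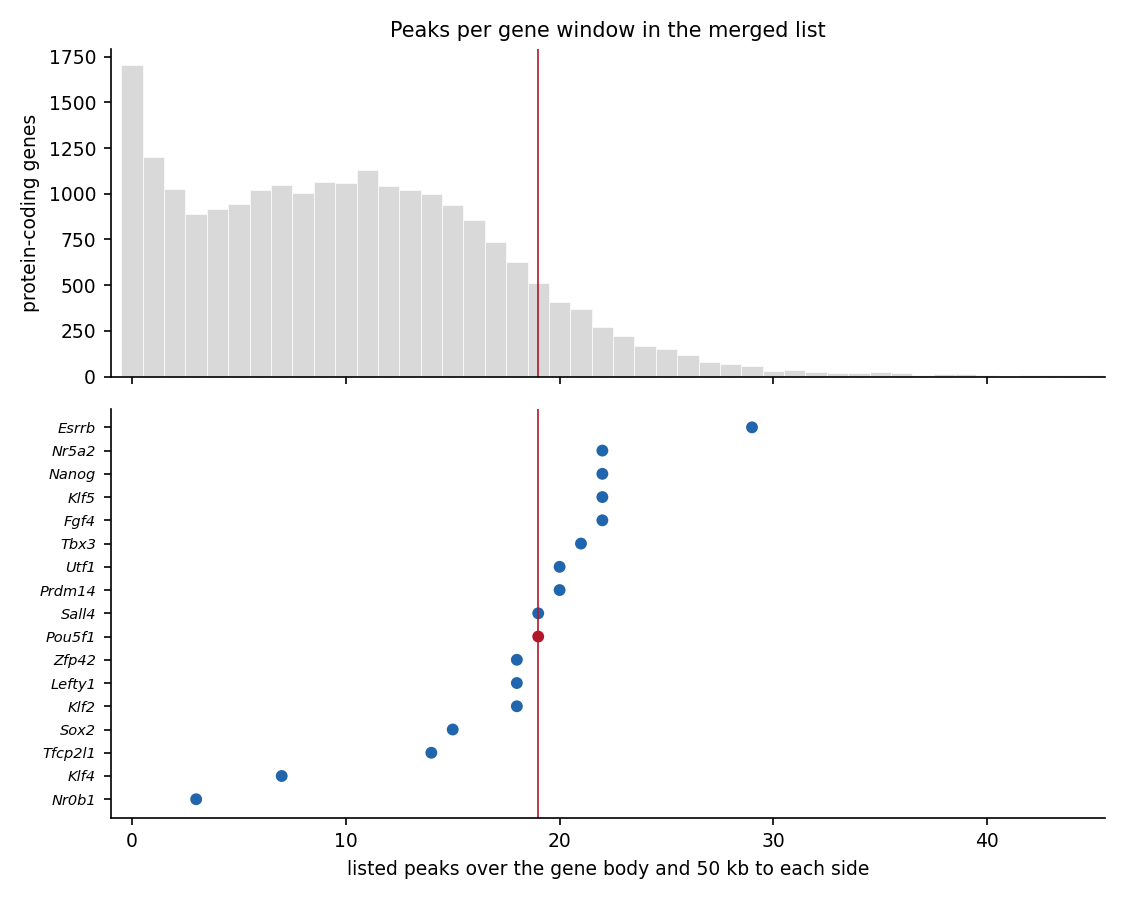
Upper panel, number of protein-coding genes by the number of listed peaks over the gene body and 50 kb to each side, with the axis ended at 45 peaks, beyond which lie 45 genes. Lower panel, the number for Pou5f1 (red) and 16 other pluripotency genes (blue). Pou5f1, at the red line, lies above the median of 10 peaks over all genes and within the range of the pluripotency genes.

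The windows where Pou5f1 has its enhancers were also drawn at these genes. Here and below, the TSS of each gene is its outermost annotated 5′ end, and whether ES cells start transcription there was not tested. The distal enhancer window met a peak at 1 of the 16 genes, Sall4, where 19.8% of it was covered, against 68.5% at Pou5f1, and at 5.84% of all protein-coding genes. The proximal enhancer window met one at 3 of them, with 46.4% covered at Sox2, 24.3% at Sall4 and 52.1% at Fgf4, against 0.333% at Pou5f1, and at 9.43% of all protein-coding genes. The gene body was covered further at 1 of the 16, Utf1, with 72.8%. In the 10 kb before the TSS more bp lay under peaks at 2 genes, Sox2 with 2485 bp and Fgf4 with 2507 bp, both in 3 peaks. The median of the 16 genes was 592.5 bp.

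**Figure D5:**
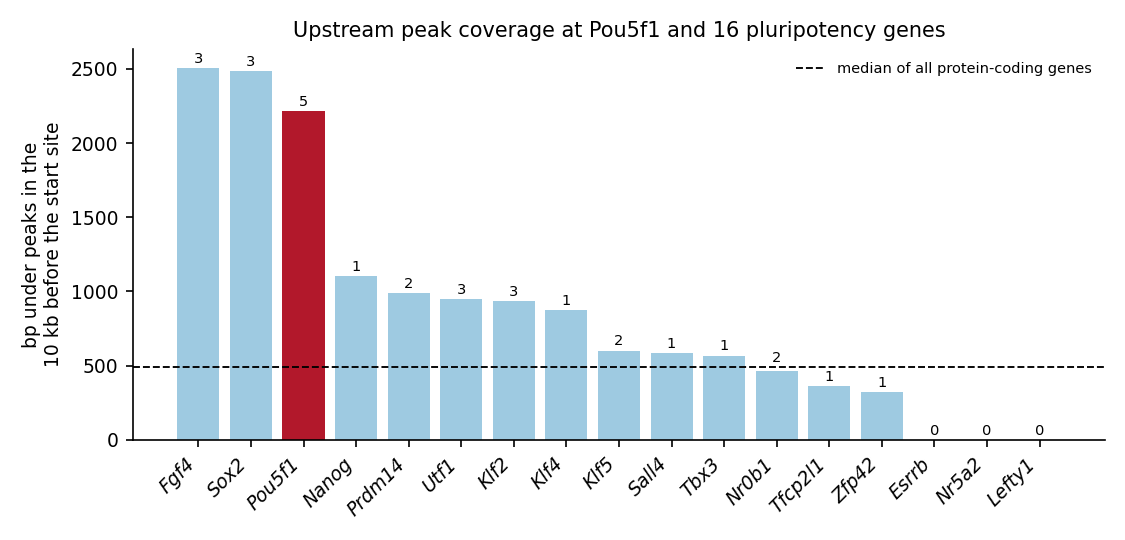
Bases under listed peaks in the 10 kb before the TSS of Pou5f1 (red) and of 16 other pluripotency genes (blue), in bp. Numbers above the bars count the peaks that meet this stretch, and the dashed line is the median of all protein-coding genes, 488 bp. Pou5f1 has 5 peaks and 2215 bp, and Esrrb, Nr5a2 and Lefty1 have none.

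Sox2 and Nanog, which encode the closest partners of OCT4, had their own layouts. The TSS of Sox2 lay in a peak 1849 bp wide, from -1178 to 670 bp, and its next upstream peak ended 7440 bp before the TSS. The TSS of Nanog lay in no peak. Its nearest upstream peak, 1101 bp wide, ran from -5348 to -4248 bp, and its first peak in the gene from 1481 to 1838 bp. Their windows held 15 and 22 peaks, with no OCT4::SOX2 match.

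Likeness to the layout of Pou5f1 was measured as the bp covered in both genes over the bp covered in either, from 5000 bp before to 5000 bp after the TSS. Over the 21937 other protein-coding genes the median of this index was 0.178. The closest were Nop10 (0.535), Foxf2 (0.534), Pomk (0.534), Irx1 (0.517) and Pou3f2 (0.515), the last a POU factor of the nervous system. Of the 16 pluripotency genes Klf2 came closest, with 0.326. Sox2 stood at 0.254 and Nanog at 0.0488, and Esrrb, Nr5a2 and Lefty1 shared no covered bp with Pou5f1. None of the 16 reached an index as high as the 5% of genes most like Pou5f1, which begins at 0.347.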

How the data were processed

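ATAC-seq was performed by the authors on 20 libraries of ZHBTc4 cells. Reads were aligned to GRCm38 with STAR 2.6.1c, duplicates were removed with Picard, MACS (version 2.1.1.20160309, paired-end mode) was used for peak calling, and peaks were merged over the 16 libraries from cells in dox with BEDTools. The deposited file holds 3 columns with the chromosome, the start and the end of each merged peak, in bp, and other values such as scores or counts are not in it. Depth is therefore unknown. Per the methods of the study, peaks wider than 5 kb, peaks also called in input and blacklisted peaks were taken out. The list still holds 7 peaks wider than 5000 bp, none at this locus, so the width filter is not applied in it. Whether the other filters were, and whether the list is complete, could not be tested. The text of the study prints the dox concentration in mg where the labels have ug, and the labels were followed. The unsorted cells without dox were not analysed here.

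Starts were converted to count from 1. Genes came from GENCODE M21, sequence from the RefSeq copy of GRCm38, with 21938 protein-coding genes, each entered at its 5′ end. Promoter entries were matched by symbol, and 2 matched Pou5f1. Repeats are the bases in lower case in that sequence. Motifs were searched on both strands, exactly except OCT4::SOX2 (up to 2 mismatches) and CTCF (14 bases, up to 1 mismatch). The half-site was added after the data were seen. Words of 32 bases were counted on both strands of 21 chromosomes. The members, windows and gene list were chosen with earlier results of these data known. Named were every member, the protein-coding genes of the window, the 16 pluripotency genes and the 5 genes with the most similar layout. The planned limma fit of MD-OCT4 against MD*-OCT4 needs values per library and was not run. Functions were tested on simulated data. Python 3.11.15, numpy 2.4.6, pandas 2.3.3, pysam 0.24.0 and matplotlib 3.10.9 were used.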

Additional observations from a re-analysis of the deposited data

How the results depend on the processing

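Of 19 alternative settings 13 left the value of the locus within 1.5 times of that reported, or within the spread of its peaks. The other 6 moved it further. The covered share of the gene body could not change under the settings tried. Its peaks are wider than 300 bp and lie 2121 bp apart. The number of peaks was 12 with a flank of 25000 bp and 32 with 100000 bp. With up to 1 mismatch no peak (0) of the locus held an OCT4::SOX2 match, and within the central 200 bp of each peak 1 did, that of the distal enhancer. The share of protein-coding genes with at least as many peaks as Pou5f1 was 5.06% when the window was drawn from the TSS and 6.24% for peaks of at least 300 bp. No paired analysis was possible because only merged coordinates, and no values per library, were at hand, so neither a replicate block nor leaving out a replicate could be run. The depth behind the list is unknown, so a region outside it was not shown to be closed.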
